A study of Mus musculus with 4 samples.

Results

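Mature oligodendrocytes are the myelin-forming glia of the brain, and here they are the nuclei of the primary motor cortex that carried their marker transcripts. A nucleus was taken as one when it had at least 500 detected genes and under 5% mitochondrial counts, and at least 3 of the 8 transcripts Prr5l, St18, Sec14l5, Aspa, Mog, Mag, C030029H02Rik and 1700047M11Rik. It could hold at most 1 count in all of Slc17a7, Gad1 and Gad2, which mark neurons, and at most 1 of Gli3, Slc39a12, Flt1, Inpp5d and Pdgfra, which mark other glia and vessels. Of 27085 nuclei past the gene and mitochondrial limits in 4 libraries, 1991 met the rule.

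Oligodendrocytes arise from precursor cells that leave the cell cycle, pass through a newly formed stage and wrap axons in a compacted membrane, myelin, made of a few abundant proteins and a lipid-rich bilayer. They also feed the axons they cover, buffer potassium and store iron, and they carry the glucocorticoid receptor, a steroid-bound transcription factor that pairs on short DNA repeats and raises genes such as Fkbp5 and Sgk1. SIK3 is a kinase of the salt-inducible family; the form without exon 13 is known from mice that sleep more.

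Nuclei came from C57BL/6N mice, whose primary motor area was cut from frozen coronal sections, and were counted with a droplet method that reads transcript 3′ ends (10x Chromium, v3.1). There was 1 library in each of 4 groups. These were sleep deprivation by gentle handling, cortex given an adeno-associated virus (AAV8) with FLAG-tagged SIK3 Ex13del, cortex given the same virus with SIK3 WT, and ad lib sleep. The vector's promoter, human synapsin, is active in neurons, so oligodendrocytes were not its intended target, and both AAV libraries also differ from ad lib sleep in having received a virus. The number of animals in each library, their age and the hour of sampling are not given in the sources used here. The series was designed to set cortex at different sleep need side by side. With 1 library per group no difference below has a replicate check, no test was made, and every interval is an exact 95% interval that covers counting error only.

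The rule found 276 mature oligodendrocytes after sleep deprivation, 480 with Ex13del, 453 with WT and 782 in ad lib sleep. They were 4.93% (4.38 to 5.53) of kept nuclei after sleep deprivation, 8.25% (7.55 to 8.99) with Ex13del, 6.73% (6.14 to 7.36) with WT and 8.75% (8.17 to 9.35) in ad lib sleep. The share was lowest in the sleep-deprived library, beyond counting error. With at least 800 genes per nucleus the share after sleep deprivation was 5.92%, above its interval here. The part of the gene minimum in the difference between libraries was not tested. Their counts of distinct molecules (UMIs) had a median per nucleus of 3019.5 after sleep deprivation, 2356.5 with Ex13del, 2253 with WT and 1878.5 in ad lib sleep. The nuclei of the sleep-deprived library were thus the fewest and the deepest, which matters for each share of nuclei with a transcript. Levels below are CPM, a gene's UMIs per 1000000 UMIs of the mature oligodendrocytes of a library, which held 1014167 UMIs after sleep deprivation, 1481021 with Ex13del, 1306063 with WT and 1998192 in ad lib sleep. A gene with 3 UMIs would stand at 2.96 CPM after sleep deprivation, 2.03 CPM with Ex13del, 2.30 CPM with WT and 1.5 CPM in ad lib sleep.

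The identity was checked against 12 oligodendrocyte genes that the rule had not used. Their summed level was 12129 CPM in the 338 nuclei with all 8 markers, 6787 CPM in the 165 nuclei with exactly 3, just inside the rule, and 2841 CPM in the 247 nuclei with exactly 2, just outside it. Mbp, the basic protein of compact myelin, had at least 1 UMI in 93.8% of members after sleep deprivation, 87.2% with Ex13del, 89.8% with WT and 87.6% in ad lib sleep once every nucleus was thinned to 1000 UMIs. Without thinning it was in 97.8% after sleep deprivation, 96.7% with Ex13del, 97.6% with WT and 96.3% in ad lib sleep. In excitatory neurons the thinned share was 10.3% after sleep deprivation, 7.63% with Ex13del, 8.99% with WT and 7.48% in ad lib sleep. The source of these UMIs was not tested. The data go with the label. Besides the rule's genes, those that stood highest in the members over other nuclei included Fbxw15, the noncoding RNAs Gm44866 and Gm48370, Slc13a1, a sulfate transporter, and Fa2h, which makes the hydroxylated fatty acids of myelin lipids. The members were chosen by the UMIs of the 16 genes of the rule, so levels of those genes, or of others against the nuclei left outside, describe the cells and test nothing.

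Markers of other glia were low. Across 11 astrocyte genes the summed level in mature oligodendrocytes was 879 CPM after sleep deprivation, 809.6 CPM with Ex13del, 893 CPM with WT and 896 CPM in ad lib sleep, against 8934 to 10130.0 CPM in astrocytes. For 8 precursor genes it was 229 CPM after sleep deprivation, 186 CPM with Ex13del, 191 CPM with WT and 251 CPM in ad lib sleep. For 9 microglia genes it was 388 CPM after sleep deprivation, 413 CPM with Ex13del, 443 CPM with WT and 525 CPM in ad lib sleep. None of these 3 lists had a member at 0 in the mature oligodendrocytes of any library. Neuronal genes were not low. For 12 markers of excitatory neurons the summed level in mature oligodendrocytes was 1686 CPM after sleep deprivation, 1688 CPM with Ex13del, 1861 CPM with WT and 1846 CPM in ad lib sleep, against 4247 to 4506 CPM in excitatory neurons. For 11 markers of inhibitory neurons it was 1842 CPM after sleep deprivation, 1676 CPM with Ex13del, 2016 CPM with WT and 1787 CPM in ad lib sleep. No barcode was that of a mature oligodendrocyte in more than 1 library, although the 4 libraries shared 77 barcodes over their 6 pairs.

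The transcripts with the most UMIs were shared by all 4 libraries. Malat1, a nuclear noncoding RNA, led with 111233 CPM after sleep deprivation, 93748 CPM with Ex13del, 84522 CPM with WT and 104915 CPM in ad lib sleep. It was followed by transcripts of long genes that nuclei hold in unspliced form, among them Pcdh9, Nkain2, Pde4b, Ptprd and Magi2, and by Mbp, Plcl1, Fth1 and Qk. Qk, an RNA-binding protein that myelination needs, stood at 2649 CPM after sleep deprivation, 2419 CPM with Ex13del, 2710.4 CPM with WT and 2364 CPM in ad lib sleep. Plcl1, which codes for a phospholipase-like protein, was at 3232 CPM after sleep deprivation, 3039 CPM with Ex13del, 2825 CPM with WT and 1756 CPM in ad lib sleep, lowest in ad lib sleep.

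A pool of genes far higher in excitatory neurons was lower in members of the sleep-deprived library than in those of any other library. The summed level of the inhibitory markers did not do so, although most of these genes stood below ad lib sleep. The 11 inhibitory markers summed to 1842 CPM after sleep deprivation, 1676 CPM with Ex13del, 2016 CPM with WT and 1787 CPM in ad lib sleep. Taken singly, 7 of the 10 measured stood below ad lib sleep in the sleep-deprived library and 3 above. Their log2 ratios had a median of -0.41. The pool held 134 genes of at least 50 CPM in excitatory neurons, at least 5-fold above their mean level in members. Its summed level in mature oligodendrocytes was 10497 CPM after sleep deprivation, 20024 CPM with Ex13del, 20612 CPM with WT and 23624 CPM in ad lib sleep. Astrocytes had 14871 CPM after sleep deprivation, 19983 CPM with Ex13del, 24661 CPM with WT and 23157 CPM in ad lib sleep, so that the sleep-deprived library was lowest there too. Excitatory neurons themselves had 101896 CPM after sleep deprivation and 106515 CPM in ad lib sleep. The rule itself caps the UMIs of 3 neuronal genes at the same number whatever a nucleus's depth, which is stricter for deeper nuclei. Of the nuclei with at least 3 markers it left out as neuronal 160 of 455 after sleep deprivation, 145 of 642 with Ex13del, 154 of 621 with WT and 234 of 1051 in ad lib sleep. Its part in these levels was not tested.

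Genes of neurons made up much of the lower end of the comparison with ad lib sleep. A gene was ranked when its mean over the pair of libraries reached 20 CPM and its UMIs there 100 in all. Of 5828 ranked genes, 316 (5.42%) were 1.5-fold or more higher after sleep deprivation and 603 (10.3%) were 1.5-fold or more lower. Of the 603 lower genes, 366 (60.7%) were at least 2-fold higher in excitatory neurons than in mature oligodendrocytes, against 10.6% of all ranked genes. The 12 lowest all stood higher in excitatory neurons, among them Cntn5, a neuronal adhesion molecule, at 62.1 CPM after sleep deprivation, 254 CPM with Ex13del, 243 CPM with WT and 335 CPM in ad lib sleep, Hs6st3, a heparan sulfate sulfotransferase, at 82.8 CPM after sleep deprivation, 238 CPM with Ex13del, 279 CPM with WT and 352 CPM in ad lib sleep, and Sorbs2os, antisense to Sorbs2, at 21.7 CPM after sleep deprivation, 107 CPM with Ex13del, 98 CPM with WT and 118 CPM in ad lib sleep. Of the 316 higher genes, 214 (67.7%) were at least 2-fold above excitatory neurons, against 25% of ranked genes. The UMIs of Cntn5 lay mostly in few members. In ad lib sleep 39 of 782 nuclei held 614 of its 669 UMIs, and after sleep deprivation 14 of 276 held 50 of 63. How much of each lower level comes from RNA of neurons around the nuclei, or from few nuclei rich in neuronal genes, was not tested. For that reason several lists are also given over genes at least 2-fold above neurons.

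**Figure D1:**
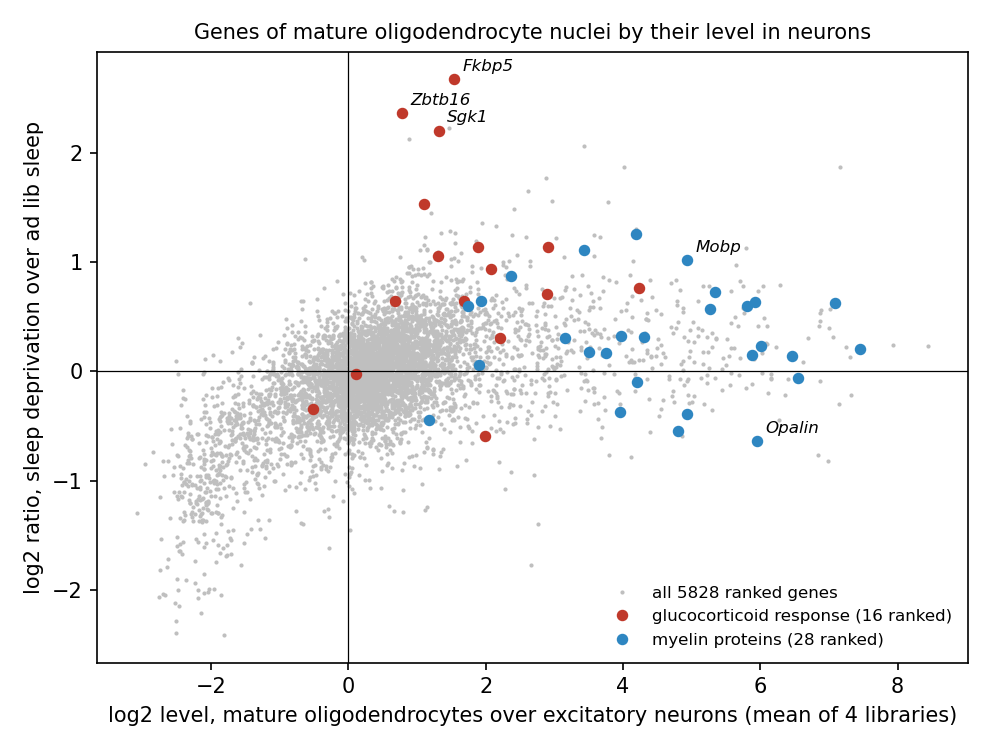
Each point is 1 of 5828 ranked genes of mature oligodendrocytes, with the log2 ratio of its level in these cells over excitatory neurons (mean of 4 libraries) on the x axis and the log2 ratio of sleep deprivation over ad lib sleep on the y axis. Genes of neurons, at the left, sit mostly below 0, glucocorticoid-response genes (red, 16 ranked) sit mostly above 0, and myelin genes (blue, 28 ranked), far to the right, lie on both sides of 0.

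Genes that the glucocorticoid receptor is known to raise formed the group that stood highest after sleep deprivation. The windows around the start of Sgk1 and Fkbp5 show what the receptor's motif looks like in the first and how a well-known target can lack it near its start. Sgk1 codes for a salt and glucocorticoid regulated kinase, and Fkbp5 for a co-chaperone that holds the receptor in its inactive complex. Both are RefSeq windows of build GRCm38.p6 from 250 bases before to 50 bases after an annotated start, written 5′ to 3′ on the gene's strand. Capitals mark the half-site TGTTCT or its reverse complement AGAACA, and nothing else. A looser core, ACANNNTGT, was also searched, and both motifs on both strands. The Sgk1 window is chr10:21993640-21993939, on the plus strand, and the Fkbp5 window is chr17:28486100-28486399, on the minus strand.
Sgk1: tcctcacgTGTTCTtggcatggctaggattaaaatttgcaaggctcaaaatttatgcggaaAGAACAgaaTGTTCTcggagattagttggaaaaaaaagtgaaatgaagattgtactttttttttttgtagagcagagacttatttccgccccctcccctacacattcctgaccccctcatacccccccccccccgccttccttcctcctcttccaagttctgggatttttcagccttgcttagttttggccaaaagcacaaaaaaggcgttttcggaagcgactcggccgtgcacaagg
Fkbp5: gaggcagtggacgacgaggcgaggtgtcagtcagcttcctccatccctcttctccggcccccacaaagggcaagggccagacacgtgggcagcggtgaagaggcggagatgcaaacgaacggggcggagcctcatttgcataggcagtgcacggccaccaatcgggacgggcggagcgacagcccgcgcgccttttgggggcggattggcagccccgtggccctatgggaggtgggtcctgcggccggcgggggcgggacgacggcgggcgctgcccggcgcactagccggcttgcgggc

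The Sgk1 window held 3 half-sites, and among them the full palindrome, AGAACA and TGTTCT with any 3 bases between, which occurred in 3 of 32851 windows (0.00913%). This was 1 of 6 annotated Sgk1 windows, and 3′ counts do not show which start was used. The Fkbp5 window held none of the motifs. Of 32 genes of the glucocorticoid list with a window, 5 (15.6%) held the half-site, namely Bcl6, Fam107a, Sgk1, Sult1a1 and Tsc22d3, against 21.3% of all genes. The looser core was in 7 of 32 (21.9%), against 7.90% of all genes. A match is a description of these bases and not a binding site, and the receptor often acts from sites far from a start.

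Zbtb16 (ENSMUSG00000066687, chr9:48654297-48836222, minus strand; all gene positions are on GRCm38), a zinc-finger repressor, stood at 311 CPM after sleep deprivation, 361 CPM with Ex13del, 266 CPM with WT and 59.6 CPM in ad lib sleep. Fkbp5 (ENSMUSG00000024222, chr17:28399094-28517527, minus strand) stood at 159 CPM after sleep deprivation, 118 CPM with Ex13del, 96.5 CPM with WT and 24.0 CPM in ad lib sleep. Sgk1 (ENSMUSG00000019970, chr10:21882184-21999903, plus strand) stood at 311 CPM after sleep deprivation, 266 CPM with Ex13del, 214 CPM with WT and 66.6 CPM in ad lib sleep. In each case the ad lib library was the lowest by far, and for Zbtb16 the Ex13del library was above the sleep-deprived one. The ratio of sleep deprivation over ad lib sleep was 6.61 (4.76 to 9.32) for Fkbp5, 5.22 (4.21 to 6.50) for Zbtb16 and 4.67 (3.80 to 5.76) for Sgk1.

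The same genes were followed in other cells. In astrocytes Fkbp5 stood at 103 CPM after sleep deprivation against 15.8 CPM in ad lib sleep, a ratio near that of the oligodendrocytes, and in excitatory neurons at 50 CPM after sleep deprivation against 18.9 CPM in ad lib sleep. Sgk1 differed between cell types in its ratio, with 44.6 CPM after sleep deprivation against 27.1 CPM in ad lib sleep in astrocytes and 82.5 CPM after sleep deprivation against 84.2 CPM in ad lib sleep in excitatory neurons. In oligodendrocyte precursors Sgk1 stood at 288 CPM after sleep deprivation against 124 CPM in ad lib sleep, Zbtb16 at 195 CPM after sleep deprivation against 45.2 CPM in ad lib sleep and Fkbp5 at 92.7 CPM after sleep deprivation against 45.2 CPM in ad lib sleep. Zbtb16 in astrocytes stood at 199.6 CPM after sleep deprivation against 62.2 CPM in ad lib sleep. The 3 genes thus stood above ad lib sleep in the precursors too, and with 1 library a group the differences between cell types have no test.

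Plin4 (ENSMUSG00000002831, chr17:56100591-56109803, minus strand) codes for perilipin 4, a coat protein of lipid droplets. It stood at 68.0 CPM after sleep deprivation, 38.5 CPM with Ex13del, 37.5 CPM with WT and 2.0 CPM in ad lib sleep, from 69, 57, 49 and 4 UMIs in that order. Its ratio of sleep deprivation over ad lib sleep, 34.0 (12.7 to 128), was the largest of the list and rests on few UMIs in ad lib sleep. In astrocytes Plin4 was at 6.74 CPM after sleep deprivation against 1.70 CPM in ad lib sleep, and in excitatory neurons at 1.47 CPM after sleep deprivation against 1.48 CPM in ad lib sleep. Plin4 overlaps Hdgfl2 on the opposite strand.

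The list has 36 genes, and 33 of them reached a mean of 5 CPM over the pair of libraries and count as measured. Of these, 27 stood above ad lib sleep in the sleep-deprived library. The median of log2 ratios, each taken after adding 1 CPM to both levels, was 0.92, against -0.06 over all 12567 genes measured. Of 16 that could be ranked, 12 were 1.5-fold or more higher and 1 was lower. Over the genes at least 2-fold above neurons, 21 of 24 were higher, with a median of 0.87. The summed level of the list was 3209.5 CPM after sleep deprivation, 2784 CPM with Ex13del, 2591 CPM with WT and 1599 CPM in ad lib sleep. It was 5596 CPM after sleep deprivation and 3347 CPM in ad lib sleep in astrocytes, and 1125 CPM after sleep deprivation and 935 CPM in ad lib sleep in excitatory neurons.

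The list's other members fall into roles. Among kinases and their partners, Sgk3, a relative of Sgk1, stood at 203 CPM after sleep deprivation, 114 CPM with Ex13del, 117 CPM with WT and 69.6 CPM in ad lib sleep, and Arrdc2, an arrestin-domain protein, at 50.3 CPM after sleep deprivation, 46.6 CPM with Ex13del, 35.2 CPM with WT and 9.01 CPM in ad lib sleep. Among inhibitors of signalling, Nfkbia, which holds NF-kB in the cytoplasm, stood at 55.2 CPM after sleep deprivation, 40.5 CPM with Ex13del, 36.0 CPM with WT and 14.5 CPM in ad lib sleep, and Errfi1, an inhibitor of the EGF receptor, at 119 CPM after sleep deprivation, 90.5 CPM with Ex13del, 87.3 CPM with WT and 53.5 CPM in ad lib sleep. Each of these 4 was highest after sleep deprivation and lowest in ad lib sleep. Ddit4, an inhibitor of mTOR signalling, stood at 74.9 CPM after sleep deprivation, 39.2 CPM with Ex13del, 42.1 CPM with WT and 33.5 CPM in ad lib sleep, so that only the sleep-deprived library was set apart from the other three.

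Among transcription regulators, Klf9 stood at 214 CPM after sleep deprivation, 189.7 CPM with Ex13del, 179.9 CPM with WT and 136 CPM in ad lib sleep, and Tsc22d3, the leucine zipper protein GILZ, at 200.2 CPM after sleep deprivation, 159 CPM with Ex13del, 183 CPM with WT and 118 CPM in ad lib sleep. Hif3a, a hypoxia-inducible factor, stood at 31.6 CPM after sleep deprivation, 20.3 CPM with Ex13del, 17.6 CPM with WT and 6.01 CPM in ad lib sleep. All 3 were highest after sleep deprivation and lowest in ad lib sleep, Klf9 and Tsc22d3 by under 2-fold. Among metabolic members, the metal-binding metallothionein Mt1 stood at 301 CPM after sleep deprivation, 235 CPM with Ex13del, 237 CPM with WT and 156 CPM in ad lib sleep, and glutamine synthetase, Glul, at 375 CPM after sleep deprivation, 323 CPM with Ex13del, 307 CPM with WT and 229 CPM in ad lib sleep. Mertk, a phagocytic receptor, was the one ranked member 1.5-fold or more lower, at 54.2 CPM after sleep deprivation, 50.6 CPM with Ex13del, 80.4 CPM with WT and 82.1 CPM in ad lib sleep. In astrocytes Mertk lay the other way, at 1652 CPM after sleep deprivation against 866 CPM in ad lib sleep. The steroid receptors differed less than their targets. The glucocorticoid receptor Nr3c1 stood at 149.9 CPM after sleep deprivation, 172 CPM with Ex13del, 155 CPM with WT and 152 CPM in ad lib sleep, and the mineralocorticoid receptor Nr3c2 at 81.8 CPM after sleep deprivation, 101 CPM with Ex13del, 99.5 CPM with WT and 104 CPM in ad lib sleep.

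**Figure D2:**
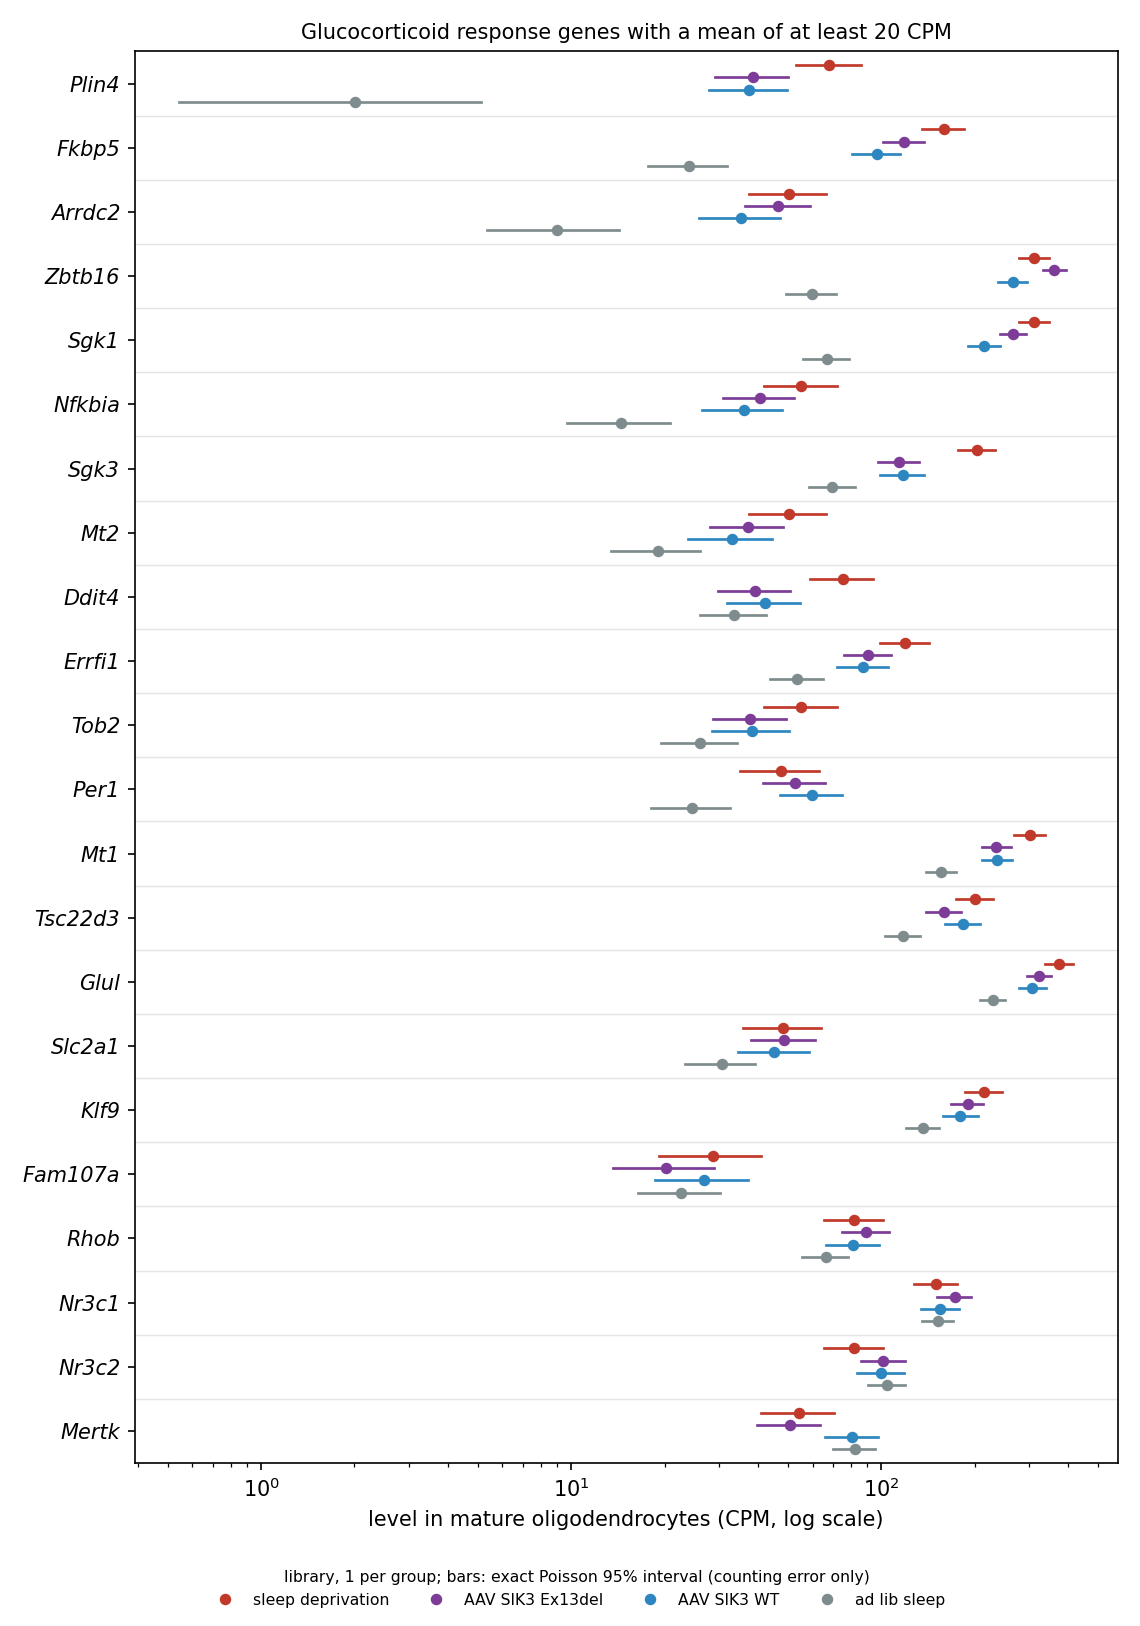
Level in CPM (log axis) of the 22 glucocorticoid-response genes whose mean over the 4 libraries reached 20 CPM, with 1 point per library and exact Poisson 95% intervals as bars. Genes are ordered by their ratio of sleep deprivation over ad lib sleep, and in the upper rows, such as Plin4, Fkbp5, Zbtb16 and Sgk1, the ad lib library lies below the other three.

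The difference was spread over many nuclei. After thinning to 1000 UMIs, 52.7% of mature oligodendrocytes after sleep deprivation had at least 1 UMI of Fkbp5, Zbtb16 or Sgk1, as did 49.7% with Ex13del, 41.3% with WT and 11.1% in ad lib sleep. In astrocytes the same share was 22.7% after sleep deprivation, 22.8% with Ex13del, 19.9% with WT and 7.2% in ad lib sleep. In excitatory neurons it was 23.8% after sleep deprivation, 20.4% with Ex13del, 21.3% with WT and 17.4% in ad lib sleep. The shares rest on 273 thinned members after sleep deprivation, 467 with Ex13del, 443 with WT and 720 in ad lib sleep, with shallower nuclei left out.

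For single genes too the ad lib library was lowest. Zbtb16 had a UMI in 27.5% (22.3 to 33.2) of thinned members after sleep deprivation, 29.8% (25.7 to 34.1) with Ex13del, 23.3% (19.4 to 27.5) with WT and 4.31% (2.94 to 6.06) in ad lib sleep. Sgk1 had one in 24.9% (19.9 to 30.5) after sleep deprivation, 23.1% (19.4 to 27.2) with Ex13del, 17.2% (13.8 to 21.0) with WT and 5.56% (4.0 to 7.49) in ad lib sleep. Without thinning Sgk1 was in 57.6% after sleep deprivation, 45.2% with Ex13del, 38.0% with WT and 13.4% in ad lib sleep, and Zbtb16 in 58.0% after sleep deprivation, 56.2% with Ex13del, 45.3% with WT and 10.6% in ad lib sleep. The nuclei that held one did not clearly hold the other. After sleep deprivation Sgk1 was found in 26.7% of nuclei with Zbtb16 and in 24.2% without it, and in ad lib sleep in 3.23% with Zbtb16 and 5.66% without it. The top 5% of nuclei held 21.0% of Sgk1 UMIs after sleep deprivation, 27.7% with Ex13del, 30.4% with WT and 50.4% in ad lib sleep, a measure that also depends on how many UMIs there are.

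**Figure D3:**
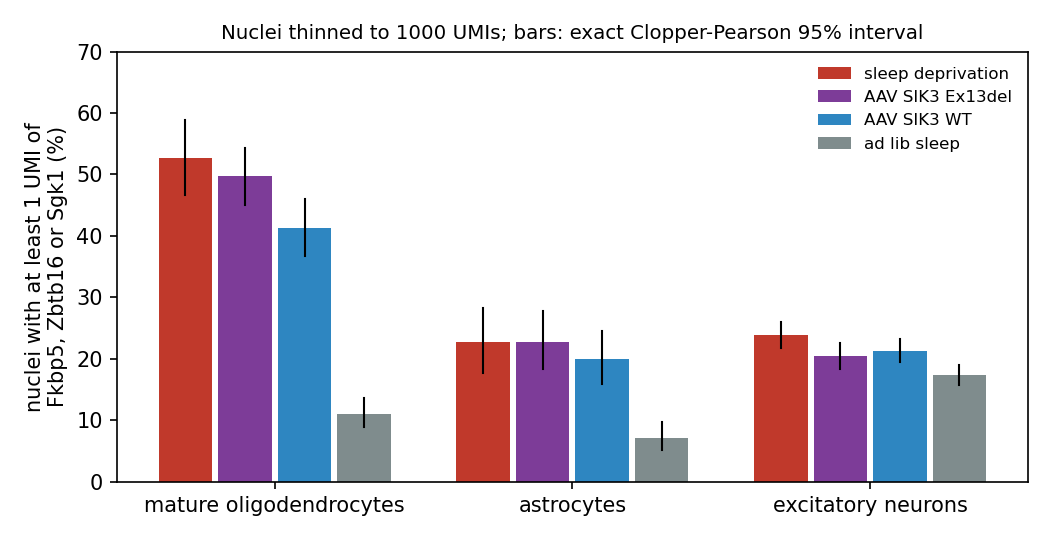
Percentage of nuclei with at least 1 UMI of Fkbp5, Zbtb16 or Sgk1 after thinning each nucleus to 1000 UMIs, with exact binomial 95% intervals, in mature oligodendrocytes, astrocytes and excitatory neurons of each library. The mature oligodendrocytes show 52.7% after sleep deprivation and 11.1% in ad lib sleep, while excitatory neurons show 23.8% after sleep deprivation and 17.4% in ad lib sleep.

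Beyond this list, the genes that stood highest after sleep deprivation against ad lib sleep had varied roles. Adipor2, a receptor for adiponectin, stood at 699 CPM after sleep deprivation, 583 CPM with Ex13del, 554 CPM with WT and 238 CPM in ad lib sleep, a ratio of 2.93 (2.61 to 3.30). Itpk1, an inositol phosphate kinase, stood at 337 CPM after sleep deprivation, 314 CPM with Ex13del, 248 CPM with WT and 114 CPM in ad lib sleep, and Htra1, a secreted protease, at 183 CPM after sleep deprivation, 117 CPM with Ex13del, 128 CPM with WT and 43.0 CPM in ad lib sleep. In all 3 genes both AAV libraries were also above ad lib sleep. Adipor2 was at 123 CPM after sleep deprivation against 92.8 CPM in ad lib sleep in astrocytes, 209 CPM after sleep deprivation against 41.5 CPM in ad lib sleep in oligodendrocyte precursors and 36.9 CPM after sleep deprivation against 38.1 CPM in ad lib sleep in excitatory neurons. Htra1 overlaps Fgfr2 on the opposite strand, and whether counting used the strand is not given in the sources used here.

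Zfand4, a zinc-finger gene, stood at 88.7 CPM after sleep deprivation, 51.3 CPM with Ex13del, 39.8 CPM with WT and 19.5 CPM in ad lib sleep. The noncoding RNA Gm44866 (ENSMUSG00000109233, chr7:119720811-119735760, minus strand) stood at 331 CPM after sleep deprivation, 233 CPM with Ex13del, 183 CPM with WT and 89.6 CPM in ad lib sleep, and in astrocytes at 7.58 CPM after sleep deprivation against 1.13 CPM in ad lib sleep. Both were highest after sleep deprivation, with the AAV libraries between. Ttr, the thyroid hormone carrier made by choroid plexus, stood at 92.7 CPM after sleep deprivation, 0 CPM with Ex13del, 1.53 CPM with WT and 19.0 CPM in ad lib sleep. Ttr was also higher in the other kept nuclei of the sleep-deprived library, at 102 CPM after sleep deprivation against 9.84 CPM in ad lib sleep.

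Proteins of the myelin membrane differed gene by gene. Of 29 measured, 21 were higher after sleep deprivation than in ad lib sleep, with a median log2 ratio of 0.23, and 10 of 28 ranked genes were 1.5-fold or more higher and 1 lower. This direction depended on the genes counted in the total. When only genes at least 2-fold above neurons made up the total, 14 of 29 were higher and the median was -0.01. Another total moves every gene of a library alike. The genes above neurons held 36.5% of members' UMIs after sleep deprivation and 30.8% in ad lib sleep, and under this scaling 1552 of all 3673 genes measured were higher, with a median of -0.09.

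Mog, a surface protein of the outermost layer, stood at 765 CPM after sleep deprivation, 669.8 CPM with Ex13del, 679.9 CPM with WT and 662 CPM in ad lib sleep, and Mag, the adhesion protein next to the axon, at 820.4 CPM after sleep deprivation, 699.5 CPM with Ex13del, 635 CPM with WT and 744 CPM in ad lib sleep. Both differed by less than 1.5-fold between any 2 libraries. Mobp, a small basic protein of compact myelin, stood at 1454 CPM after sleep deprivation, 1061 CPM with Ex13del, 1211 CPM with WT and 717 CPM in ad lib sleep, and Mbp, which joins the cytoplasmic faces of the membrane, at 3925 CPM after sleep deprivation, 2878 CPM with Ex13del, 3122 CPM with WT and 2639 CPM in ad lib sleep. Both were highest after sleep deprivation, with ratios over ad lib sleep of 2.03 (1.88 to 2.18) for Mobp and 1.49 (1.43 to 1.55) for Mbp.

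The messages of Mobp and Mbp are known to be carried out into the cell's processes, and both were also higher in nuclei outside the members. Mbp stood at 315 CPM after sleep deprivation against 163 CPM in ad lib sleep in astrocytes and at 102 CPM after sleep deprivation against 64.2 CPM in ad lib sleep in excitatory neurons. Mobp stood at 86.3 CPM after sleep deprivation against 54.3 CPM in ad lib sleep in all other kept nuclei. The part of free RNA in their levels was not tested.

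Plekhb1, a membrane-associated protein, stood at 156 CPM after sleep deprivation, 72.9 CPM with Ex13del, 91.9 CPM with WT and 71.6 CPM in ad lib sleep. Mal, a proteolipid of myelin, stood at 925 CPM after sleep deprivation, 724 CPM with Ex13del, 578 CPM with WT and 559 CPM in ad lib sleep. Sirt2, a deacetylase of the myelin sheath, stood at 203 CPM after sleep deprivation, 155 CPM with Ex13del, 138 CPM with WT and 110.1 CPM in ad lib sleep. Ermn, a cytoskeletal protein of late differentiation, stood at 306 CPM after sleep deprivation, 256 CPM with Ex13del, 203 CPM with WT and 202 CPM in ad lib sleep. Each was highest after sleep deprivation, with a ratio over ad lib sleep of 2.18 for Plekhb1, 1.65 for Mal, 1.84 for Sirt2 and 1.52 for Ermn. Opalin, a sialylated membrane protein of oligodendrocytes, stood the other way at 157 CPM after sleep deprivation, 186 CPM with Ex13del, 161 CPM with WT and 244 CPM in ad lib sleep, with a ratio of 0.642 (0.533 to 0.769). Pllp, plasmolipin, was also lower, at 78.9 CPM after sleep deprivation, 103 CPM with Ex13del, 73.5 CPM with WT and 116 CPM in ad lib sleep.

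Transcription factors of the lineage differed less. Of 21 measured, 17 stood above ad lib sleep in the sleep-deprived library (median log2 ratio 0.22), and of 18 ranked 2 were 1.5-fold or more higher and 1 lower. Zfp536, a zinc-finger regulator, stood at 1818 CPM after sleep deprivation, 1615 CPM with Ex13del, 1573 CPM with WT and 1025 CPM in ad lib sleep, with a ratio of 1.77 (1.66 to 1.89). Smarca4, the ATPase of a chromatin-remodelling complex, stood at 50.3 CPM after sleep deprivation, 66.2 CPM with Ex13del, 81.9 CPM with WT and 78.6 CPM in ad lib sleep, and Sox10, which drives myelin genes, at 372 CPM after sleep deprivation, 285 CPM with Ex13del, 259.6 CPM with WT and 351 CPM in ad lib sleep. Over the genes at least 2-fold above neurons the list's median was -0.03, with 7 of 17 higher, against -0.09 over all genes above neurons. Both the total and the members of the list differ there from those of the first count. Among enzymes of sphingolipid and long-chain lipid synthesis, 21 of 31 were higher, with a median of 0.15, and over genes above neurons 8 of 19, with a median of -0.06. Among enzymes of cholesterol synthesis, 15 of 23 were higher, with a median of 0.09, and none of 9 ranked was 1.5-fold or more higher and 1 was lower.

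Chaperones of the cytosol, in a list that also holds the mitochondrial Hspd1 and Hspe1, stood higher after sleep deprivation. Of 21 measured, 18 were higher than in ad lib sleep, with a median log2 ratio of 0.39, and 5 of 15 ranked were 1.5-fold or more higher. Over genes at least 2-fold above neurons, 9 of 11 were higher, with a median of 0.43. The start of Hsph1, which codes for a large Hsp70-type nucleotide exchange factor, is shown because it carries the heat-shock motif, TTC, GAA and TTC with any 2 bases between each, searched on both strands and marked in capitals. The window is chr5:149636287-149636586, minus strand, RefSeq, GRCm38.p6.
Hsph1: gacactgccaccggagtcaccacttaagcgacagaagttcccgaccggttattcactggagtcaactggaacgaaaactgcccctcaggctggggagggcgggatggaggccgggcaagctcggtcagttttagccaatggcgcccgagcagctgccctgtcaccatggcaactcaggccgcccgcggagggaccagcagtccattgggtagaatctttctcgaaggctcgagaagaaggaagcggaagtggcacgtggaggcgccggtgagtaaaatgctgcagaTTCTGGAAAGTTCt

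The motif was in 4 of 19 chaperone genes with a window (21.1%), namely Chordc1, Hspd1, Hspe1 and Hsph1, against 0.662% of all genes. Hsph1 stood at 92.7 CPM after sleep deprivation, 79.0 CPM with Ex13del, 78.1 CPM with WT and 53.5 CPM in ad lib sleep. Hsp90ab1, a main cytosolic Hsp90, stood at 931 CPM after sleep deprivation, 591 CPM with Ex13del, 585 CPM with WT and 522 CPM in ad lib sleep, and Ahsa1, which stimulates the ATPase of Hsp90, at 52.3 CPM after sleep deprivation, 48.6 CPM with Ex13del, 30.6 CPM with WT and 26.5 CPM in ad lib sleep. Dnaja1, an Hsp40 co-chaperone, stood at 206 CPM after sleep deprivation, 165 CPM with Ex13del, 172 CPM with WT and 125 CPM in ad lib sleep. All 4 were highest after sleep deprivation, and the AAV libraries lay nearer to ad lib sleep for Hsp90ab1. Hsp90ab1 was also higher after sleep deprivation in other cells, with a ratio over ad lib sleep of 1.55 in astrocytes and 1.38 in excitatory neurons. Cryab, a small heat-shock protein that mature oligodendrocytes hold in quantity, stood at 474 CPM after sleep deprivation, 252 CPM with Ex13del, 244 CPM with WT and 198 CPM in ad lib sleep, with a ratio of 2.40 (2.10 to 2.75). In astrocytes Cryab stood at 87.6 CPM after sleep deprivation against 43.0 CPM in ad lib sleep. The gene overlaps Hspb2 on the opposite strand.

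Proteins of the cytosolic ribosome stood nearly all one way. Of 38 measured, 37 were higher after sleep deprivation than in ad lib sleep, by a median log2 ratio of 0.39, and 9 were 1.5-fold or more higher. Their summed level was 8735 CPM after sleep deprivation, 6581 CPM with Ex13del, 7232 CPM with WT and 6524 CPM in ad lib sleep. In astrocytes it was 6795 CPM after sleep deprivation and 5404 CPM in ad lib sleep, and in excitatory neurons 2694 CPM after sleep deprivation and 2485 CPM in ad lib sleep. Over genes at least 2-fold above neurons the median in members was 0.15, with 30 of 38 higher. Chaperones of the endoplasmic reticulum were mixed, with 13 of 22 higher and a median of 0.08, although Hspa5, its main Hsp70, stood at 135 CPM after sleep deprivation, 93.9 CPM with Ex13del, 100.3 CPM with WT and 77.6 CPM in ad lib sleep.

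Mature oligodendrocytes are known to fall into subtypes, one of which carries Ptgds, Il33 and Apod. Of 18 genes of that subtype, 15 were higher after sleep deprivation than in ad lib sleep, with a median of 0.39, and 4 of 18 ranked were 1.5-fold or more higher. Over genes at least 2-fold above neurons 11 of 15 were higher, with a median of 0.17. Ptgds, which makes prostaglandin D2, a lipid known to promote sleep, stood at 975 CPM after sleep deprivation, 654 CPM with Ex13del, 675 CPM with WT and 485 CPM in ad lib sleep, with a ratio of 2.01 (1.84 to 2.20). In astrocytes Ptgds stood at 1382 CPM after sleep deprivation against 321 CPM in ad lib sleep, and in excitatory neurons at 59.9 CPM after sleep deprivation against 40.1 CPM in ad lib sleep. Ptgds is also made in the meninges, so a part from free RNA was not tested.

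Slco3a1, an organic anion transporter, stood at 337 CPM after sleep deprivation, 227 CPM with Ex13del, 162 CPM with WT and 138 CPM in ad lib sleep, and Anln, a septin-binding protein, at 308 CPM after sleep deprivation, 296 CPM with Ex13del, 248 CPM with WT and 184 CPM in ad lib sleep. Both were highest after sleep deprivation and lowest in ad lib sleep. Apod, a lipid carrier, stood at 452 CPM after sleep deprivation, 529 CPM with Ex13del, 357 CPM with WT and 295 CPM in ad lib sleep, highest with Ex13del. Pairs of these genes differed in how often they shared a nucleus. Anln was found, in thinned nuclei, in 37.1% of nuclei with Apod and 24.5% without it after sleep deprivation, in 33.7% with and 21.2% without it with Ex13del, in 30.4% with and 19.2% without it with WT, and in 28.7% with and 17.3% without it in ad lib sleep. Anln and Ptgds were counted in the same way. Anln was in 31.8% of nuclei with Ptgds and 24.6% without it after sleep deprivation, in 21.3% with and 29.6% without it with Ex13del, in 15.8% with and 27.9% without it with WT, and in 18.4% with and 21.4% without it in ad lib sleep. After sleep deprivation the exact binomial 95% intervals, 24.5 to 39.9% with Ptgds and 17.2 to 33.2% without it, overlapped.

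Iron is stored in ferritin, and Fth1, its heavy chain, stood at 3968 CPM after sleep deprivation, 1874 CPM with Ex13del, 2576 CPM with WT and 1898 CPM in ad lib sleep. In the sleep-deprived library the 14 nuclei richest in Fth1 held 36.6% of its UMIs, and 1 nucleus held 262. In astrocytes Fth1 stood at 1748 CPM after sleep deprivation against 1095 CPM in ad lib sleep. Tfrc, the transferrin receptor, stood the other way at 26.6 CPM after sleep deprivation, 44.6 CPM with Ex13del, 50.5 CPM with WT and 51.0 CPM in ad lib sleep. Over the whole iron list 5 of 11 genes stood above ad lib sleep in the sleep-deprived library, and the median was -0.28. Over genes at least 2-fold above neurons 4 of 7 were higher, with a median of 0.13.

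Kcnj10 and Kcna1, both genes of potassium channels, were among the higher genes. Kcnj10, the inward rectifier Kir4.1, stood at 151 CPM after sleep deprivation, 102 CPM with Ex13del, 91.9 CPM with WT and 85.1 CPM in ad lib sleep, and Kcna1, a delayed rectifier, at 623 CPM after sleep deprivation, 521 CPM with Ex13del, 366 CPM with WT and 324 CPM in ad lib sleep. Both were highest after sleep deprivation, with ratios over ad lib sleep of 1.77 (1.42 to 2.22) for Kcnj10 and 1.92 (1.72 to 2.15) for Kcna1. The AMPA receptor subunit Gria2, of which neurons hold more, stood at 414 CPM after sleep deprivation, 795 CPM with Ex13del, 684 CPM with WT and 836 CPM in ad lib sleep. Over the list of channels, receptors and transporters 19 of 32 were higher, with a median of 0.07, and of 25 ranked 7 were 1.5-fold or more higher and 6 lower.

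Among genes of growth factor and differentiation signalling, 1 of 27 ranked was 1.5-fold or more higher after sleep deprivation and 5 were lower. Daam2, a formin of the Wnt pathway that slows differentiation, stood at 499 CPM after sleep deprivation, 367 CPM with Ex13del, 368 CPM with WT and 228 CPM in ad lib sleep, with a ratio of 2.19 (1.93 to 2.49). The neuregulins, axonal ligands for ErbB receptors, were lower, with Nrg3 at 305 CPM after sleep deprivation, 853 CPM with Ex13del, 890.5 CPM with WT and 1059 CPM in ad lib sleep, and both Nrg1 and Nrg3 are genes of neurons. Of 35 measured, 16 were higher, with a median of -0.10, and over genes above neurons 5 of 18, with a median of -0.27. Among 33 genes of the cytoskeleton and process outgrowth, 29 were higher, with a median of 0.26, but 15 of 27 were higher with a median of 0.04 over genes at least 2-fold above neurons.

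Several clock genes stood at their highest, or for Arntl at their lowest, in the AAV libraries. Per1, a clock gene that glucocorticoids and light raise, stood at 47.3 CPM after sleep deprivation, 52.7 CPM with Ex13del, 59.7 CPM with WT and 24.5 CPM in ad lib sleep. Tef, a clock-driven bZIP factor, stood at 68.0 CPM after sleep deprivation, 134 CPM with Ex13del, 123 CPM with WT and 80.1 CPM in ad lib sleep, and Per3, a period gene, at 20.7 CPM after sleep deprivation, 68.9 CPM with Ex13del, 46.7 CPM with WT and 34.5 CPM in ad lib sleep. Arntl, the activator BMAL1, stood at 25.6 CPM after sleep deprivation, 19.6 CPM with Ex13del, 15.3 CPM with WT and 34.0 CPM in ad lib sleep, lowest with WT. Of 21 clock genes, 8 stood above ad lib sleep in the sleep-deprived library (median -0.14) and 15 did so with WT (median 0.22). The hour at which each library was sampled is not given, so that time of day and group cannot be told apart. Of 17 immediate early genes, 12 stood above ad lib sleep in the sleep-deprived library (median 0.20), and none of 4 ranked was 1.5-fold or more higher. Arc, a cytoskeletal gene induced by activity, stood at 38.5 CPM after sleep deprivation, 21.6 CPM with Ex13del, 23.7 CPM with WT and 16.5 CPM in ad lib sleep.

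Genes of newly formed and myelin-forming oligodendrocytes were mixed, with 13 of 21 higher after sleep deprivation than in ad lib sleep and a median of 0.22, and of 15 ranked 5 were 1.5-fold or more higher and 1 lower. Over genes at least 2-fold above neurons 9 of 19 were higher, with a median of -0.0047. A few nuclei held most UMIs of 9630013A20Rik (ENSMUSG00000115529, chr14:84458639-84476424, minus strand), antisense to Pcdh17. It stood at 550.2 CPM after sleep deprivation, 107 CPM with Ex13del, 243 CPM with WT and 160.1 CPM in ad lib sleep, and 24 nuclei with at least 10 of its UMIs held most of them, 6 after sleep deprivation, 4 with Ex13del, 6 with WT and 8 in ad lib sleep. These nuclei carried genes of newly formed oligodendrocytes, with Tcf7l2, a Wnt-pathway factor, at 1967 CPM against 66.6 CPM in the other members, Bcas1 at 2444 CPM against 484 CPM, and Enpp6 at 638 CPM against 75.8 CPM. Mal was at 65.6 CPM in them against 688 CPM in the others, and Zbtb16 at 29.8 CPM against 233 CPM. Sgk1 was at 238 CPM in them against 192 CPM.

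The 24 nuclei were picked by UMIs of 9630013A20Rik itself, so a fall in its level without them is built in. They held 520 of its 558 UMIs after sleep deprivation and 214 of 320 in ad lib sleep. A cut at 10 UMIs is also reached more easily in deeper nuclei. Without these 24 nuclei, in a comparison chosen after seeing the data, the ratio of sleep deprivation over ad lib sleep was 0.73 (0.49 to 1.07) for 9630013A20Rik, against 3.44 (2.99 to 3.95) with them. For Cnksr3, a scaffold protein of sodium-channel signalling, it was 1.52 (0.96 to 2.36) without them and 3.71 (2.91 to 4.76) with them. The ratios of Sgk1, Zbtb16 and Fkbp5 were 5.19, 5.38 and 6.78 without them.

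**Figure D4:**
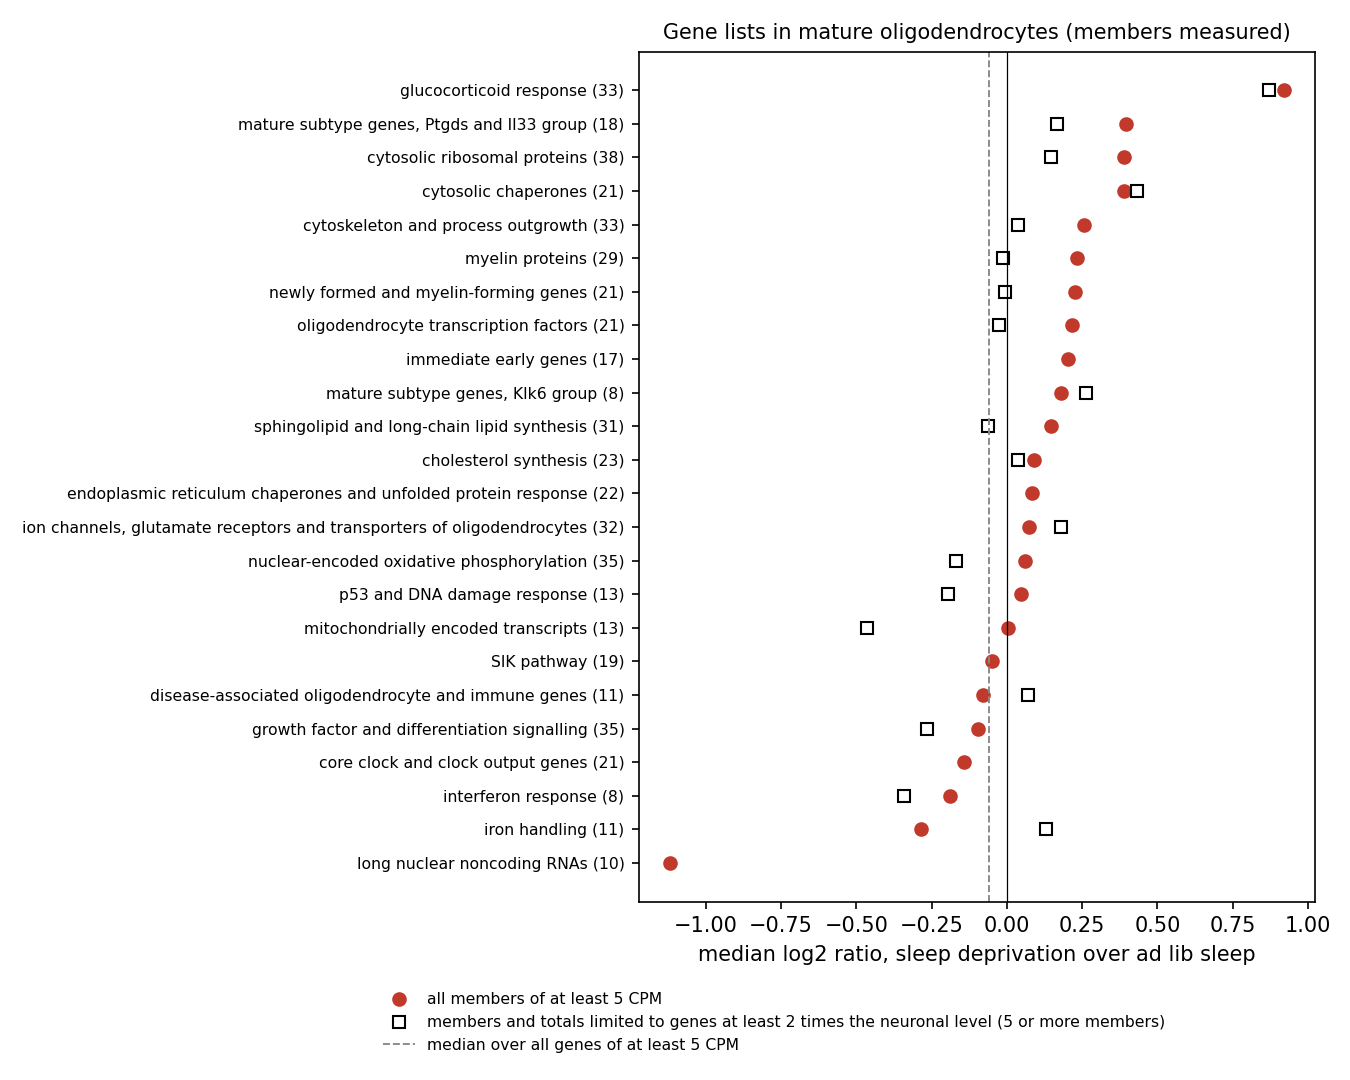
Median log2 ratio of sleep deprivation over ad lib sleep for gene lists in mature oligodendrocytes, over all measured members of a list (filled) and over genes at least 2-fold above excitatory neurons only (open squares). The glucocorticoid list lies farthest to the right at 0.92 and 0.87, while the myelin list lies at 0.23 over all genes and at -0.01 over genes above neurons.

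WT was set against ad lib sleep, the same library that serves the comparison with sleep deprivation, so the comparisons share it. Of 6254 genes ranked for WT against ad lib sleep, 151 (2.41%) were 1.5-fold or more higher and 202 (3.23%) lower. Among the glucocorticoid list, 27 of 32 were higher with WT, with a median log2 ratio of 0.61 against -0.03 over all 12687 genes, and 8 of 17 ranked were 1.5-fold or more higher. The ratio of WT over ad lib sleep was 4.46 (3.61 to 5.54) for Zbtb16, 4.02 (2.86 to 5.72) for Fkbp5 and 3.22 (2.61 to 3.99) for Sgk1, and these were the 3 highest of all ranked genes. With 1 ad lib library, a low level in that library and a high level in the other three cannot be told apart.

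Other genes high with WT against ad lib sleep were Polr3e, a subunit of RNA polymerase III, at 175 CPM with WT against 80.6 CPM in ad lib sleep, and Inpp5a, an inositol phosphatase that overlaps Nkx6-2 on the opposite strand, at 85.8 CPM with WT against 33.0 CPM in ad lib sleep. Gm42756, a noncoding RNA antisense to Fbxw15, stood at 113 CPM with WT against 40.5 CPM in ad lib sleep. All 3 were above ad lib sleep after sleep deprivation as well, with Polr3e at 228 CPM, Inpp5a at 74.9 CPM and Gm42756 at 61.1 CPM. Slc13a1 stood at 106 CPM after sleep deprivation, 397 CPM with Ex13del, 349.9 CPM with WT and 181 CPM in ad lib sleep, highest in both AAV libraries and lowest after sleep deprivation. Myelin proteins did not stand apart, with 18 of 29 higher with WT than in ad lib sleep and a median of 0.04.

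Ex13del was set against WT, both libraries having received a virus. Of 5491 ranked genes, 78 (1.42%) were 1.5-fold or more higher with Ex13del and 89 (1.62%) lower, the fewest of the 4 comparisons. Sik3 (ENSMUSG00000034135, chr9:46012820-46224194, plus strand), the mouse's own gene, stood at 715 CPM after sleep deprivation, 733 CPM with Ex13del, 705 CPM with WT and 671 CPM in ad lib sleep, without a difference beyond counting error between Ex13del and WT, whose ratio was 1.04 (0.952 to 1.14). The vector's transcript tail stood at 144 CPM with Ex13del and 75.0 CPM with WT, and had no UMI in members of the other two libraries.

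At least 1 UMI of the vector was in 20.2% of mature oligodendrocytes with Ex13del and 16.6% with WT. The share was 21.0% with Ex13del and 17.8% with WT in astrocytes, and 27.0% with Ex13del and 22.1% with WT in excitatory neurons, for which the promoter was chosen and whose nuclei are deeper. The median depth was 2356.5 UMIs with Ex13del and 2253 UMIs with WT in mature oligodendrocytes, against 11236.5 UMIs with Ex13del and 10325 UMIs with WT in excitatory neurons. As a level the vector stood at 144 CPM with Ex13del and 75.0 CPM with WT in mature oligodendrocytes, at 125 CPM with Ex13del and 56.4 CPM with WT in astrocytes, where the promoter is not thought to act, and at 63.5 CPM with Ex13del and 50.6 CPM with WT in excitatory neurons. The source of the UMIs outside neurons was not tested. Of the 214 vector UMIs with Ex13del, 80 came from 3 nuclei, and without them the level was 91.5 CPM.

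Genes of the SIK pathway, kinases and the class IIa histone deacetylases and CREB coactivators they phosphorylate, had 7 of 19 higher with Ex13del than with WT and a median log2 ratio of -0.10, with none of 14 ranked past 1.5-fold. Mef2c, a factor that these deacetylases repress, stood at 350.0 CPM after sleep deprivation, 398 CPM with Ex13del, 441 CPM with WT and 517 CPM in ad lib sleep, and Hdac9, one of the deacetylases, at 109 CPM after sleep deprivation, 119 CPM with Ex13del, 154 CPM with WT and 181 CPM in ad lib sleep. Both were lowest after sleep deprivation, and both lay higher in ad lib sleep than in any other library. Excitatory neurons hold more of both, with Mef2c at 948 CPM after sleep deprivation against 1042 CPM in ad lib sleep and Hdac9 at 349 CPM after sleep deprivation against 421 CPM in ad lib sleep.

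The glucocorticoid list lay near even between Ex13del and WT, with 19 of 32 higher and a median log2 ratio of 0.06, and none of 20 ranked was 1.5-fold or more higher and 1 was lower. Myelin proteins were also close, with 19 of 29 higher, a median of 0.16, and none of 25 ranked past 1.5-fold in either direction. Proteins of the ribosome had 10 of 38 higher and a median of -0.12, and the nuclear-encoded genes of oxidative phosphorylation 7 of 35 higher and a median of -0.13.

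Interferon-response genes, which infection and cytosolic nucleic acid raise, were higher with Ex13del in 13 of 14 measured, with a median of 0.68 against 0.00 over all 12580 genes. Only 1 had enough UMIs to be ranked, and it was not past 1.5-fold. Their summed level was 169.6 CPM after sleep deprivation, 344 CPM with Ex13del, 215 CPM with WT and 161 CPM in ad lib sleep. Isg15, a ubiquitin-like modifier, stood at 10.8 CPM with Ex13del against 1.53 CPM with WT, from 16 UMIs with Ex13del and 2 with WT. Xaf1, a pro-apoptotic factor, stood at 29.7 CPM with Ex13del against 16.1 CPM with WT. Of 25 genes listed, 11 were under 5 CPM on average and are not in these counts, and a gene that is measured only through the library where it is high must lie above the other. Other cells showed the same order, with summed levels of 402 CPM with Ex13del against 241 CPM with WT in astrocytes, 490.2 CPM with Ex13del against 195 CPM with WT in precursors, and 159.9 CPM with Ex13del against 118 CPM with WT in excitatory neurons.

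Immune genes that oligodendrocytes take up in disease were higher with Ex13del in 12 of 14 measured, with a median of 0.36, but none of 7 ranked was 1.5-fold or more higher or lower. The floor of 5 CPM is on the mean of the pair, so that Serpina3n counts as measured only through its level with Ex13del. C4b (ENSMUSG00000073418, chr17:34728380-34743882, minus strand), a complement component, stood at 2.96 CPM after sleep deprivation, 46.6 CPM with Ex13del, 9.19 CPM with WT and 2.0 CPM in ad lib sleep, from 69 UMIs with Ex13del and 12 with WT, a ratio of 5.07 (2.73 to 10.3). Its near-identical neighbour C4a makes the assignment of these reads uncertain. Serpina3n, a protease inhibitor, stood at 3.94 CPM after sleep deprivation, 14.2 CPM with Ex13del, 0.766 CPM with WT and 1.0 CPM in ad lib sleep, from 21 UMIs with Ex13del and 1 with WT, a ratio of 18.5 (2.98 to 766). Klk6, a protease that marks one mature subtype, stood at 4.93 CPM after sleep deprivation, 27.0 CPM with Ex13del, 5.36 CPM with WT and 2.50 CPM in ad lib sleep. The ratio of Ex13del over WT for Klk6 was 5.04 (2.23 to 13.3). In these 3 genes the Ex13del library stood above each of the others.

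The 24 Ex13del nuclei richest in each gene held 55 of 69 UMIs of C4b and 38 of 40 of Klk6. With so few UMIs a large share in few nuclei is partly built in. With WT the 23 richest nuclei held all 12 UMIs of C4b. H2-D1, a class I histocompatibility gene, stood at 10.8 CPM after sleep deprivation, 39.2 CPM with Ex13del, 22.2 CPM with WT and 11.5 CPM in ad lib sleep, and B2m, its light chain, at 14.8 CPM after sleep deprivation, 42.5 CPM with Ex13del, 36.8 CPM with WT and 20.5 CPM in ad lib sleep. Both were higher in the AAV libraries than in the others. In astrocytes C4b stood at 32.4 CPM with Ex13del against 15.8 CPM with WT. The summed level of 9 microglia markers was 413 CPM with Ex13del against 443 CPM with WT. The source of the UMIs of the immune genes was not tested.

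**Figure D5:**
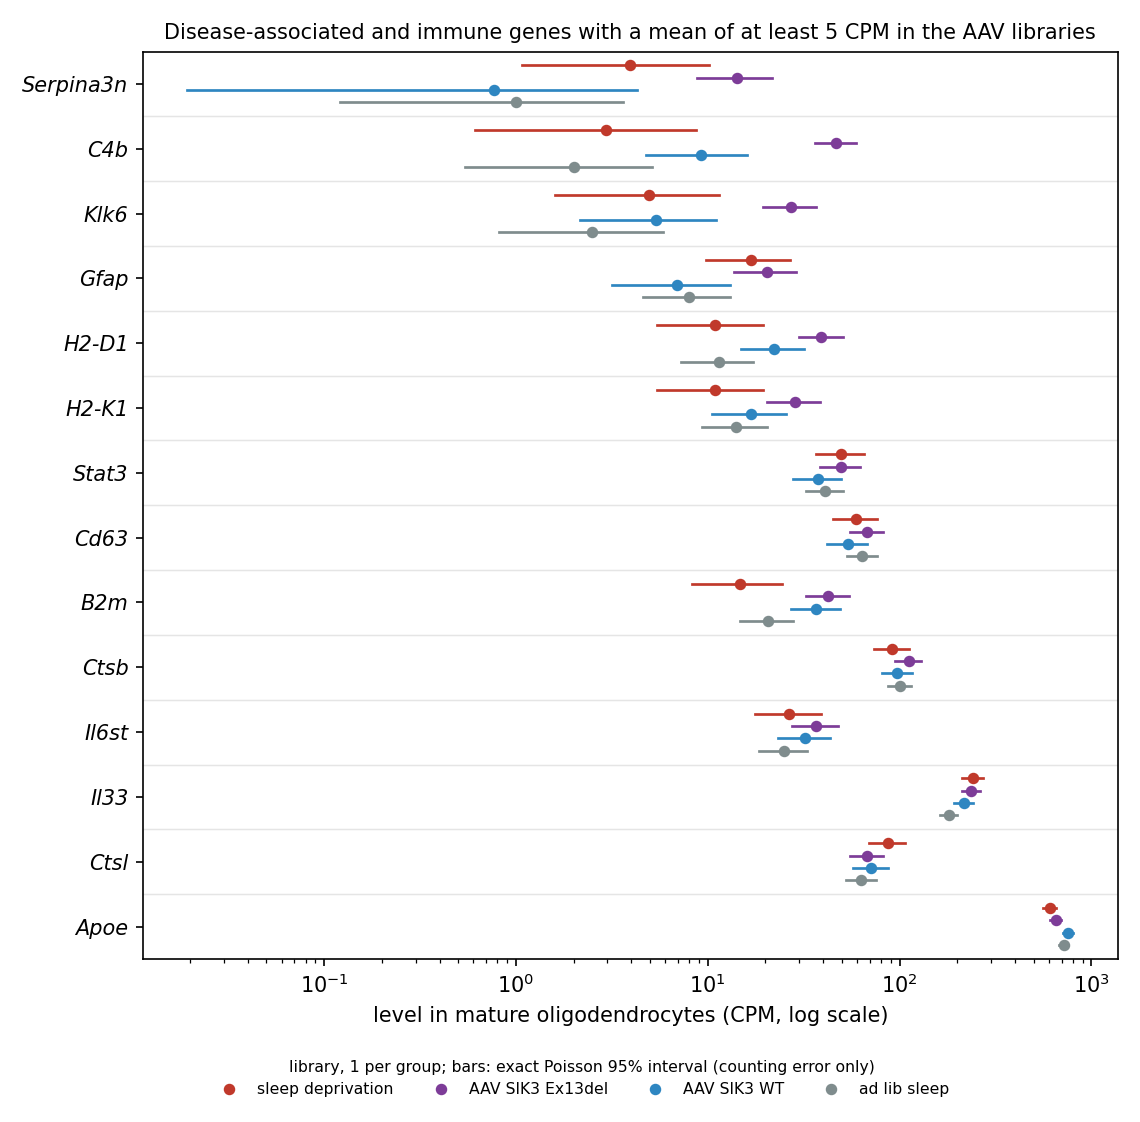
Level in CPM (log axis) of the disease-associated and immune genes whose mean in the AAV libraries reached 5 CPM, with 1 point per library and exact Poisson 95% intervals. Serpina3n, C4b and Klk6 have their highest point with Ex13del, and Apoe and Cd63 differ little between the 4 libraries.

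Among single genes, Adamtsl4, a matrix protein, stood at 62.1 CPM with Ex13del against 28.3 CPM with WT, a ratio of 2.19 (1.48 to 3.30), and Gm3448, which overlaps Tcte3, at 74.3 CPM with Ex13del against 24.5 CPM with WT. At the lower end Nell1, a secreted neural protein, stood at 25.7 CPM with Ex13del against 97.2 CPM with WT, and in excitatory neurons at 186 CPM with Ex13del against 205 CPM with WT. The noncoding RNA Gm5087 stood at 25 CPM with Ex13del against 67.4 CPM with WT. Gm5087 stood at 3.35 CPM or less in astrocytes and excitatory neurons of both AAV libraries. Tshz2, a zinc-finger gene, stood at 35.1 CPM with Ex13del against 89.6 CPM with WT, but its ratio was 3.01 when nuclei above 3 times the median UMIs were left out.

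Sleep deprivation was last set against WT, a pair that leaves out the ad lib library, adds the virus as a difference and shares 1 library with each comparison above. Of 4702 ranked genes, 147 (3.13%) were 1.5-fold or more higher after sleep deprivation and 330 (7.02%) lower. Of the 330 lower genes, 195 (59.1%) were at least 2-fold higher in excitatory neurons than in mature oligodendrocytes. Among the glucocorticoid list 26 of 33 were higher, with a median log2 ratio of 0.29 against -0.04 over all 12442 genes, and 5 of 19 ranked were 1.5-fold or more higher. The ratio of sleep deprivation over WT was 1.65 (1.3 to 2.09) for Fkbp5, 1.45 (1.23 to 1.71) for Sgk1 and 1.17 (1.0 to 1.37) for Zbtb16.

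Myelin proteins had 24 of 29 higher after sleep deprivation than with WT, with a median of 0.26. The long noncoding RNA 2610035D17Rik stood at 374 CPM after sleep deprivation, 186 CPM with Ex13del, 152 CPM with WT and 169 CPM in ad lib sleep, the sleep-deprived library alone being high, with a ratio over WT of 2.47 (2.07 to 2.94). Cryab and Slco3a1 were among the 12 highest, with ratios over WT of 1.94 (1.68 to 2.24) for Cryab and 2.08 (1.75 to 2.48) for Slco3a1. Of 21 clock genes 16 lay lower after sleep deprivation than with WT, with a median of -0.37.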

How the data were processed

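Single-nucleus counts were deposited by the authors as 1 matrix of UMI counts per gene and barcode for each of 4 libraries, which held 43655557 to 54070503 UMIs. Per the submitters' processing notes Cell Ranger 6.1.2 and the mm10 genome were used; other steps are not given in the sources used here. From these counts, nuclei were kept and mature oligodendrocytes chosen by the rule in the text, counts were summed per library, and ratios were given exact conditional 95% intervals (Python 3.11.15, scipy 1.17.1). TMM factors came from edgeR 4.0.16 as an alternative scaling only. No doublet caller was run. The rule bars nuclei with markers of other types, and an alternative leaves out nuclei above 3 times the median UMIs. The ratio and interval steps were checked on simulated data. Members and gene lists were chosen with earlier results of these data known. Named genes were the rule's genes, the 15 of highest level, for each comparison the 12 highest and 12 lowest ranked ratios, and for each list the 3 of highest level and the 2 highest and 2 lowest ratios per comparison at a mean of at least 20 CPM. Genes outside this rule were named after their values were seen, namely Ddit4, Dnaja1, Errfi1, Gria2, Hif3a, Isg15, Klf9, Klk6, Nfkbia, Nr3c1, Serpina3n, Sgk3, Sirt2, Slc13a1, Sox10 and Tsc22d3, and those printed only for a motif, an overlap or a marker level.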

Additional observations from a re-analysis of the deposited data

How the results depend on the processing

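No test was made, so each value below is a description, and no difference between groups has a replicate check. No paired analysis was possible because each group had 1 library, and for the same reason no replicate could be left out. Among the alternatives, 3 were chosen after seeing the data: genes at least 2-fold above neurons only, leaving out nuclei rich in 9630013A20Rik, and leaving out members that also met the astrocyte or precursor rule. The share of mature oligodendrocytes under strict exclusion of other types was 2.61% after sleep deprivation, 4.81% with Ex13del, 3.77% with WT and 5.21% in ad lib sleep. It was 5.92% after sleep deprivation with at least 800 genes, 6.09% with WT and 7.97% in ad lib sleep with at least 4 markers, and 8.12% in ad lib sleep without nuclei above 3 times the median UMIs. For sleep deprivation over ad lib sleep, the 316 higher genes became 135 on thinned counts, 3154 with no floor and 89 over genes above neurons only. The 603 lower genes became 349 under strict exclusion, 361 without the largest nuclei, 178 thinned, 344 at a floor of 50 CPM, 6630 with no floor and 105 over genes above neurons only. For Ex13del over WT, the 78 higher genes became 133 with every nucleus weighing the same, 32 thinned, 26 at 50 CPM, 4308 with no floor and 21 over genes above neurons only, and the 89 lower genes became 154, 35, 53, 3617 and 14 in that order. For WT over ad lib sleep, the 151 higher genes became 97 at 50 CPM, 3621 with no floor and 42 over genes above neurons only, and the 202 lower genes became 69 thinned, 79 at 50 CPM, 5028 with no floor and 73 over genes above neurons only. The glucocorticoid median of sleep deprivation over ad lib sleep lay between 0.74 and 0.97 under every alternative run. The myelin median of that comparison was 0.093 without the largest nuclei, with 18 of 29 genes higher, 0.11 with equal weights, with 16 of 29 higher, 0.057 thinned and -0.012 over genes above neurons only. For WT over ad lib sleep the myelin median was -0.044 without the largest nuclei, -0.070 with equal weights, -0.018 thinned and -0.084 over genes above neurons only. Of 5643 gene values under an alternative, 10 turned direction. The ratio of sleep deprivation over ad lib sleep was 0.73 for 9630013A20Rik without its rich nuclei, which were picked by that gene's own UMIs. For Nr4a1 it was 1.20 without the largest nuclei and 1.22 with equal weights. The ratio of Ex13del over WT was 1.01 for E230029C05Rik thinned, and for Tshz2 3.01 without the largest nuclei, 1.36 with equal weights and 1.90 thinned. The ratio of WT over ad lib sleep was 0.99 for 9630013A20Rik without the largest nuclei, 0.69 for Prom1 under strict exclusion and 0.71 for Rnf213 thinned. The cause of these moves was not tested, apart from the floors and the thinning, which alter how many genes are counted.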

Other observations

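Noncoding RNAs kept in the nucleus were lower after sleep deprivation than in ad lib sleep in 8 of 10 measured, with a median log2 ratio of -1.12. Of 8 ranked, 5 were 1.5-fold or more lower. Only 1 was measured over genes at least 2-fold above neurons, with a log2 ratio of -0.33, so the count rests mostly on genes not set apart from neurons. The list's summed level, most of it Malat1, was 113752 CPM after sleep deprivation and 109267 CPM in ad lib sleep. Meg3, which neurons express strongly, stood at 653 CPM after sleep deprivation, 1145 CPM with Ex13del, 1179 CPM with WT and 1618 CPM in ad lib sleep. Malat1 was an exception in being highest after sleep deprivation. Transcripts of the mitochondrial genome were lower with Ex13del than with WT in 11 of 13, with a median of -0.22, and higher with WT than in ad lib sleep in 11 of 13, with a median of 0.23. Among them mt-Nd4, a subunit of complex I, stood at 726 CPM after sleep deprivation, 762 CPM with Ex13del, 998 CPM with WT and 694 CPM in ad lib sleep.

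Genes of the mature subtype that carries Klk6 had 5 of 8 higher after sleep deprivation than in ad lib sleep, with a median of 0.18. Genes of the p53 and DNA damage response lay near even, with 7 of 13 higher and a median of 0.05. The SIK pathway had 9 of 19 higher and a median of -0.05. Markers of striatal projection neurons were higher with Ex13del than with WT in 9 of 10, with a median of 0.67, but only 2 were ranked and none was past 1.5-fold. Their summed level in mature oligodendrocytes was 328 CPM after sleep deprivation, 549 CPM with Ex13del, 411 CPM with WT and 510.5 CPM in ad lib sleep. The order of Ex13del and WT was the same in astrocytes, at 621 against 404 CPM, and in precursors, at 719 against 536 CPM. In excitatory neurons it was the reverse, at 972 CPM with Ex13del against 1046 CPM with WT.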
